A study of Mus musculus with 27 samples.

Results

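The cells described here are IM1, mouse embryonic stem cell-derived cells that were taken from an early mesoderm stage (M) and cultured for a further 3.5 days with basic fibroblast growth factor (bFGF) and bone morphogenetic protein 4 (BMP4) alone. The members are the libraries titled IM1, replicates 1 to 3, and the libraries titled M_FLyB, replicates 1 to 3, which make up 6 of the 27 libraries of the series. The series followed embryonic stem cells (ESC) through epiblast-like cells (EpiSC) and early mesoderm (M) to 5 culture conditions named intermediate mesoderm (IM1 to IM5) and to induced Sertoli-like cells, with 3 libraries per stage. Every library used here came from 1 line, clone 7 of XY embryonic stem cells of genotype Tesco-CFP; R26-rtTA on an F1 background of C57BL/6 x CBA. Tesco-CFP is a fluorescent reporter driven by a *Sox9* enhancer, and R26-rtTA is a doxycycline-responsive transactivator. Both stages came from cells primed for 60 h with activin A (20 ng/ml), bFGF (12 ng/ml) and knockout serum replacement (1%). The M stage was reached by 36 h more in chemically defined medium containing 20 ng/ml bFGF, 10 µM LY294002, an inhibitor of phosphatidylinositol 3-kinase, and 10 ng/ml BMP4. IM1 cells passed through the M stage and then received 5 ng/ml bFGF and 20 ng/ml BMP4 with no LY294002. Time in culture, bFGF dose, BMP4 dose and removal of the inhibitor all changed between M and IM1, and their effects cannot be told apart. The nearest other condition is IM3, which had the same bFGF and BMP4 for the same 3.5 days plus 100 nM retinoic acid (RA), so that IM1 is the condition of the 5 without RA. The study calls its triplicates biological replicates, but its labels do not say that they were separate cultures, so the p-values measure the spread between these libraries, which may be partly technical.

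In the gastrulating embryo, FGF and Wnt signals keep cells of the primitive streak and tail bud proliferating and posterior in character, under transcription factors such as *T* (brachyury) and the *Cdx* genes. Mesoderm that leaves the streak takes on paraxial, intermediate or lateral identity along a BMP gradient, with the highest BMP giving lateral plate and extraembryonic mesoderm, including the allantois. Intermediate mesoderm, the source of the kidney and the gonad, is known for *Osr1*, *Pax2*, *Pax8*, *Lhx1* and *Wt1*, and RA opposes the caudal program. The comparison of IM1 with M asks which genes changed when early mesoderm was left in FGF and BMP without RA.

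Depth was 51413455 to 59188377 expected counts per M library and 67899332 to 84876603 per IM1 library. Values below are normalized read counts, that is RSEM expected counts scaled to a common library size, and levels are compared between genes only as TPM, a measure of transcript abundance that takes gene length into account. A gene is said to have risen or fallen when the edgeR quasi-likelihood test gave an adjusted p of at most 0.01, the fold was at least 2 (a log2 fold change of 1), and the mean normalized read count was at least 100 both over all 27 libraries and in one of the groups compared. Of 20839 genes tested, 2025 rose (9.72% of those tested) and 1237 fell (5.94%) from M to IM1. These shares include genes below the count minimum, which could not be called. Lists of well-expressed genes can exceed the shares for that reason alone. The median log2 fold change of all genes was 0.002, and in 14959 genes (71.8%) the 3 IM1 libraries did not overlap the 3 M libraries. M replicate 2 stood apart from the other M libraries, with a chi-square of 29.8 and 38.5 per degree of freedom against them (genes as categories), where the other pair gave 7.07, and without it 2037 genes rose and 1241 fell. A gene-level trend with GC content also differed between the groups: the median deviation from the gene's mean over all libraries was higher in the 25% of genes with the most GC than in the 25% with the least by 0.114 to 0.236 on the log2 scale in IM1 libraries, while in M libraries this difference was -0.349 to -0.202. With a GC correction in the fit, 1918 genes rose, of which 1825 were among the 2025, and 1159 fell, of which 1025 were among the 1237. The libraries are of bulk RNA, in which fewer cells of a type and less RNA per cell cannot be told apart.

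**Figure D1:**
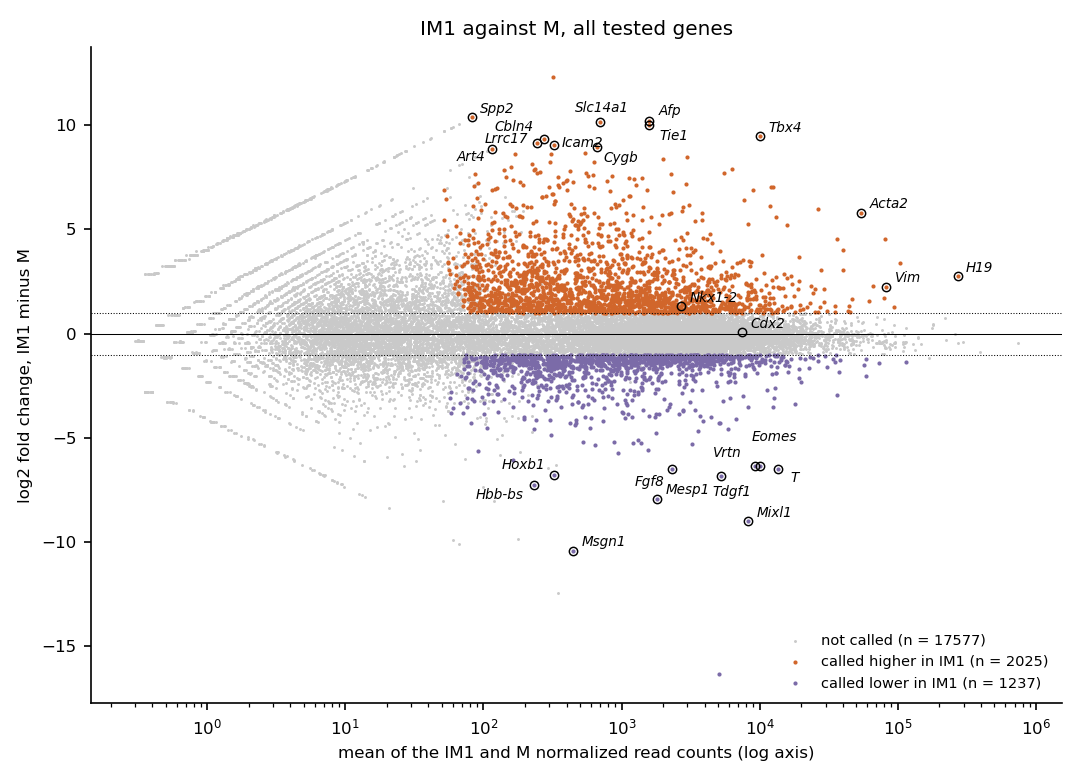
Log2 fold change from M to IM1 (vertical axis) against the mean normalized read count of the 6 libraries (log axis), 1 point per tested gene, with orange for the 2025 genes that rose, purple for the 1237 that fell and grey for the rest; dotted lines mark a log2 fold change of 1 in either direction. *Tbx4* and *Mixl1* sit far from 0 at high counts, *Cdx2* lies on the zero line, and the extreme coloured points without a name are clone-named genes that lie wholly within another gene's exons and were not described.

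The 3 genes taken as markers of IM1, a choice made with earlier results of these data known, behaved in different ways. *Cdx2* (ENSMUSG00000029646, chromosome 5, 147300805 to 147307270, minus strand of GRCm38), a homeobox gene of the caudal embryo, the allantois and the trophectoderm, had 6779, 7919 and 7179 normalized read counts in the 3 M libraries and 6997, 7500 and 8304 in the 3 IM1 libraries. The groups overlapped, with a log2 fold change of 0.06 ± 0.07 (SE) and an adjusted p of 0.455 from edgeR, and its sign turned with a GC correction or without IM1 replicate 3, where it was -0.13 and -0.01. *Cdx2* was already high in M, since EpiSC had 453 ± 17.2 (SD, n = 3). *Tbx4* (ENSMUSG00000000094, chromosome 11, 85886422 to 85916097, plus strand), a T-box gene of the hindlimb and the allantois, had 23.2, 35.7 and 24.7 counts in M and 17613, 22011 and 20396 in IM1. Every IM1 library lay above every M library, with a log2 fold change of 9.50 ± 0.16 and an adjusted p of 1.79e-25. *Nkx1-2* (ENSMUSG00000048528, chromosome 7, 132594878 to 132599637, minus strand), a homeobox gene of the caudal epiblast in which 16.6% of the exon length overlaps a gene on the other strand, had 1454, 1707 and 1482 counts in M and 4426, 3476 and 3685 in IM1. The groups did not overlap, and the log2 fold change was 1.32 ± 0.12 (adjusted p = 2.19e-10).

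All 3 were higher in IM1 than in any of the RA-containing conditions. The IM3 libraries held 389, 323 and 324 counts of *Cdx2*, 622, 623 and 540.4 of *Tbx4* and 119, 96.7 and 97.3 of *Nkx1-2*, none of which reached an IM1 library. In log2 terms IM1 exceeded IM3 by 4.45 ± 0.09 for *Cdx2*, 5.07 ± 0.11 for *Tbx4* and 5.19 ± 0.16 for *Nkx1-2* (adjusted p = 1.55e-22, 9.56e-22 and 3.64e-19 from edgeR). Background for these counts is that 776 genes were called higher in IM1 than in IM3 (3.72% of those tested) and 545 lower (2.62%). The comparison with IM3 shares its IM1 libraries with the comparison with M, so the values stand side by side and are not independent. IM5, which had activin A and 0.3 µM CHIR, an agonist of Wnt signalling, beside RA, was the next highest of the 5 conditions for all 3 genes, with 1893 ± 122 counts of *Cdx2*, 5400 ± 449 of *Tbx4* and 716 ± 26.4 of *Nkx1-2* (SD, n = 3).

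**Figure D2:**
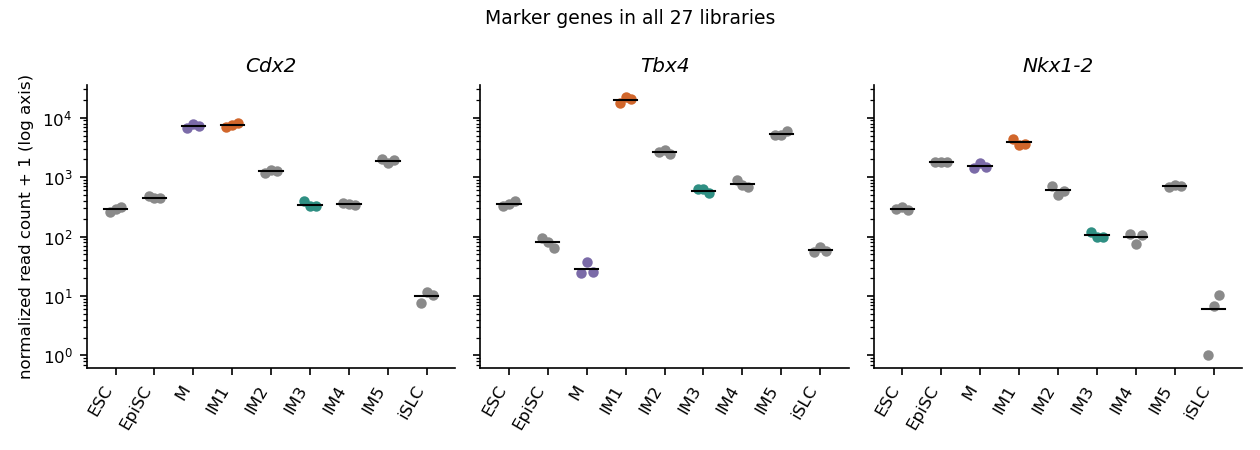
Normalized read counts plus 1 (log axis) of *Cdx2*, *Tbx4* and *Nkx1-2* in all 27 libraries by stage, with 1 point per library and a bar at the mean of each group of 3. *Cdx2* is as high in M as in IM1, *Tbx4* is at a mean of 27.8 counts in M and 20007 in IM1, and all 3 genes are lower in IM2 to IM5 than in IM1.

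Primitive streak genes fell sharply. Of 16 tested, 11 fell and none rose, and the median log2 fold change was -4.0 against 0.002 for all genes. *T*, the brachyury factor of nascent mesoderm and the notochord (ENSMUSG00000062327, chromosome 17, 8434423 to 8442496, plus strand), had 24873, 28969 and 26545 counts in M and 294, 265 and 324 in IM1. The groups were 91.2-fold apart with no overlap (log2 fold change -6.51 ± 0.15, adjusted p = 8.45e-23). *T* is described here but counted among the caudal progenitor genes below, not among these 16. *Eomes*, *Mixl1* and *Mesp1*, transcription factors that act at the streak as mesoderm and endoderm are made, fell to a like extent or further, with log2 fold changes of -6.36 ± 0.12, -8.98 ± 0.10 and -7.91 ± 0.14. The Nodal co-receptor *Tdgf1* went from 10416 ± 446 to 93.2 ± 34.9 counts, with the reservation that it has a near-identical pseudogene. *Nodal* itself (-3.42), *Lefty2* (-1.74), *Gsc* (-4.30), *Fgf4* (-3.80), *Wnt3* (-3.12) and *Sp5* (-5.23) fell too, the values being log2 fold changes. The members that did not pass were *Mesp2*, *Lefty1*, *Cer1*, *Chrd* and *Foxa2*; *Mesp2* had a log2 fold change of -6.42 but too few counts on average to be called. The summed level of the list was 750 to 820.5 TPM in M, 28.24 to 32.91 TPM in IM1.

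Caudal progenitor genes divided. Of 18 tested, 9 fell, 2 rose and 7 did not pass, with a median log2 fold change of -2.20, and their summed level went from 1133 to 1197 TPM in M to 251 to 274.4 TPM in IM1. The signalling genes of the tail bud were among the falls: *Fgf8* went from 4855, 4817 and 4006 counts to 50.1, 45.2 and 54.7, and *Fgf17* (log2 fold change -4.29), *Wnt8a* (-4.14) and *Wnt5b* (-3.65) fell with it. *Wnt3a*, the tail bud Wnt ligand, had 291, 414 and 357 counts in M and a single count over the 3 IM1 libraries together, a ratio of 1326 (95% counting interval 238 to 52376), but its average over all libraries was too low for a call. *Cyp26a1*, which degrades RA in the tail bud, fell by 4.58 on the log2 scale, and *Sp8* (-5.26) and *Evx1* (-2.70) fell as well. Against these, *Nkx1-2* rose as given above, and *Sox3*, a SoxB1 gene of the caudal epiblast and the neural plate, had 98.1, 100 and 108 counts in M and 1083, 1473 and 1542 in IM1. *Sox3* libraries did not overlap (log2 fold change 3.74 ± 0.19, adjusted p = 7.49e-16), whereas its relative *Sox2* fell from 675, 661 and 601 counts to 213, 196 and 240.3 (-1.58 ± 0.10). *Greb1* had a log2 fold change of 0.47 and *Cdx2* of 0.06, both short of the fold threshold, and the other *Cdx* genes were low in both stages, *Cdx1* with 48.3 to 64.3 counts in M and 13.3 to 25.5 in IM1 and *Cdx4* with 16.7 to 23.6 and 3.31 to 7.91. Compared with IM3, 7 caudal genes were higher in IM1 and 1, *Cyp26a1*, was lower, and the median was 3.28. *T* itself stood at 294 ± 29.3 counts in IM1 and 10.9 ± 6.88 in IM3, so that IM1 was 29.1-fold above IM3 and 91.2-fold below M.

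Presomitic genes fell, while a somite gene and both *Foxc* genes rose. *Msgn1* and *Tbx6* commit streak cells to presomitic mesoderm, and the Delta genes drive its Notch clock. *Msgn1* had 794, 1046 and 834 counts in M, and in IM1 it had 0, 0 and 1.66. Its ratio of M to IM1 was 1667, with a 95% counting interval of 461 to 13764, because only 2 expected counts were seen in the 3 IM1 libraries. Its mean over all libraries lay so near the count minimum that the call was lost without any 1 of the M libraries. Of 15 measured members of the presomitic and somite list, 5 fell (*Msgn1*, *Dll3* with a log2 fold change of -5.56, *Tbx6* -5.18, *Dll1* -4.78 and *Lfng* -2.09) and 3 rose (*Foxc2* 5.80, *Meox1* 2.36 and *Foxc1* 1.35). The median was -1.06. *Foxc1* and *Foxc2* are expressed in paraxial and intermediate mesoderm and in developing vessels, and *Meox1* in somites. *Dll1* shares 20.5% of its exon length with a gene on the opposite strand, and the strand setting of the counting is not given in the sources used here.

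Promoter sequence is shown for 4 of the genes that fell together and for *Tbx4*, because several of the falling genes are known targets of Wnt signalling, which acts through TCF/LEF factors. Each line gives 250 bases before to 50 after the transcription start from RefSeq on GRCm38.p6, 5′ to 3′ along the gene, with the TCF/LEF core CTTTGA or its other-strand form TCAAAG in capitals. The regions are chr17:8434173-8434472 (plus strand) for *T*, chr12:11208899-11209198 (minus) for *Msgn1*, chr2:70474673-70474972 (plus) for *Sp5*, chr7:79793541-79793840 (minus) for *Mesp1* and chr11:85896515-85896814 (plus) for *Tbx4*.
T: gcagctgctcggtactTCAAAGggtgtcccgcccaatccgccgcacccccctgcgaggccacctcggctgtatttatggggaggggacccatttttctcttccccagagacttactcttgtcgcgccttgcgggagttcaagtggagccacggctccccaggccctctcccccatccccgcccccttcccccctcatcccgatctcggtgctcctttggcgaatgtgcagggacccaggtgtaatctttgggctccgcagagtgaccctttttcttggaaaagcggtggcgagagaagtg
Msgn1: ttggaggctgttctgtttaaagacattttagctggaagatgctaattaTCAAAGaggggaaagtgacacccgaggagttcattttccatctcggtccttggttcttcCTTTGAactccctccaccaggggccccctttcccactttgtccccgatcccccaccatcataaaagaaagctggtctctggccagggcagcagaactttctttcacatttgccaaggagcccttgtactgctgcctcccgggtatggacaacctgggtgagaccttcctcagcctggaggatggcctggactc
Sp5: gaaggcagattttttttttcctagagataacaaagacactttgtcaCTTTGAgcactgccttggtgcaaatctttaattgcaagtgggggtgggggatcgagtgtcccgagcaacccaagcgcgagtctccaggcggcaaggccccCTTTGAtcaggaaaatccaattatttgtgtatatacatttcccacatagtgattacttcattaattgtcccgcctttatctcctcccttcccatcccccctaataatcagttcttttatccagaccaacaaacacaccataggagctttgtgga
Mesp1: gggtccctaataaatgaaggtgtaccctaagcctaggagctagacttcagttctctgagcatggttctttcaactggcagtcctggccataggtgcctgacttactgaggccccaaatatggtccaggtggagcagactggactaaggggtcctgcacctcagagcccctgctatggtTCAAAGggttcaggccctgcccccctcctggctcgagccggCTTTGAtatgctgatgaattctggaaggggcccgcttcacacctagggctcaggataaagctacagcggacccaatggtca
Tbx4: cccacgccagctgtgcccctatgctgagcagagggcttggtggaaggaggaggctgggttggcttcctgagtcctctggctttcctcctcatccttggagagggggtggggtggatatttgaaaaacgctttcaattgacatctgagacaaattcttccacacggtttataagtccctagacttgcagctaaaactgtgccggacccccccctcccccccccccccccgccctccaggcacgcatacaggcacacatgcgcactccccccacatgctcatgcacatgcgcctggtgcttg
*T* held 1 match, starting 234 bases before its start site, *Msgn1* held matches at 202 and 143 bases, *Sp5* at 204 and 104, and *Mesp1* at 72 and 31. *Tbx4* held no match in this window, which surrounds a RefSeq start inside the gene span given earlier. Sequence at the outer start of that span is not shown. The 4 falling genes shown are ones with a match, and most members of the primitive streak and presomitic lists had none: 3 of 15 promoters of the primitive streak list and 1 of 13 of the presomitic list held the core. *T* belongs to the caudal list, for which matches were not counted. The core is short and common: 16% of all 32851 RefSeq promoters of this length held it, as did 11.8% of promoters of genes that fell and 11.2% of promoters of genes that rose. A match is a description of the letters only.

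Lateral plate, allantois and limb genes rose more often than they fell. Of 21 tested, 13 rose and 3 fell, with a median log2 fold change of 2.06, and the summed level was 728.5 to 832.8 TPM in M and 1352 to 1430 TPM in IM1. *Pitx1*, which with *Tbx4* sets hindlimb identity, had 64.0, 59.5 and 37.0 counts in M and 10987, 11052 and 10953 in IM1. The 3 IM1 libraries were close to each other and far above M (log2 fold change 7.69 ± 0.17, adjusted p = 3.86e-23 from edgeR). *Prrx1*, a homeobox gene of limb and lateral mesenchyme, rose by 6.88 ± 0.14, and *Vcam1*, the adhesion molecule by which the allantois attaches to the chorion, by 6.16 ± 0.12. Its integrin partner *Itga4* rose by 3.71 ± 0.14. Further rises were *Hand2* (log2 fold change 4.33), *Gata5* (6.02), *Gata6* (1.94), *Prrx2* (3.63), *Twist1* (3.04), *Tbx2* (2.64), *Tbx5* (2.06) and *Tbx20* (1.36). *Hand1*, which is high in extraembryonic and lateral mesoderm, had 12042, 10831 and 10524 counts in M and 19267, 17751 and 17789 in IM1, a log2 fold change of 0.72 ± 0.10 that did not reach the fold threshold although the libraries did not overlap.

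Members of the list also fell. *Foxf1*, a defining factor of splanchnic lateral plate, fell from 2800, 2995 and 2559 counts to 1085, 1014 and 950.4 (log2 fold change -1.45 ± 0.13). *Bmp4* transcript fell from 12481, 12489 and 12095 to 5114, 4017 and 4143 (-1.48 ± 0.08), and *Fgf10*, the limb bud FGF, from 7357, 6431 and 6929 to 349, 244 and 228 (-4.66 ± 0.11). In each of the 3 every M library lay above every IM1 library. Of the limb T-box genes, *Tbx4* of the hindlimb and *Tbx5* of the forelimb and heart parted with RA: *Tbx5* had 129, 133 and 134 counts in IM1 and 2796, 3261 and 2551 in IM3, a log2 difference of -4.44 ± 0.13 in which IM1 was the lower, and *Tbx4* was the reverse. Against IM3, 9 lateral genes were higher and 5 lower in IM1, the lower ones being *Tbx5*, *Fgf10* and the *Gata4*, *Gata5* and *Gata6* genes.

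**Figure D3:**
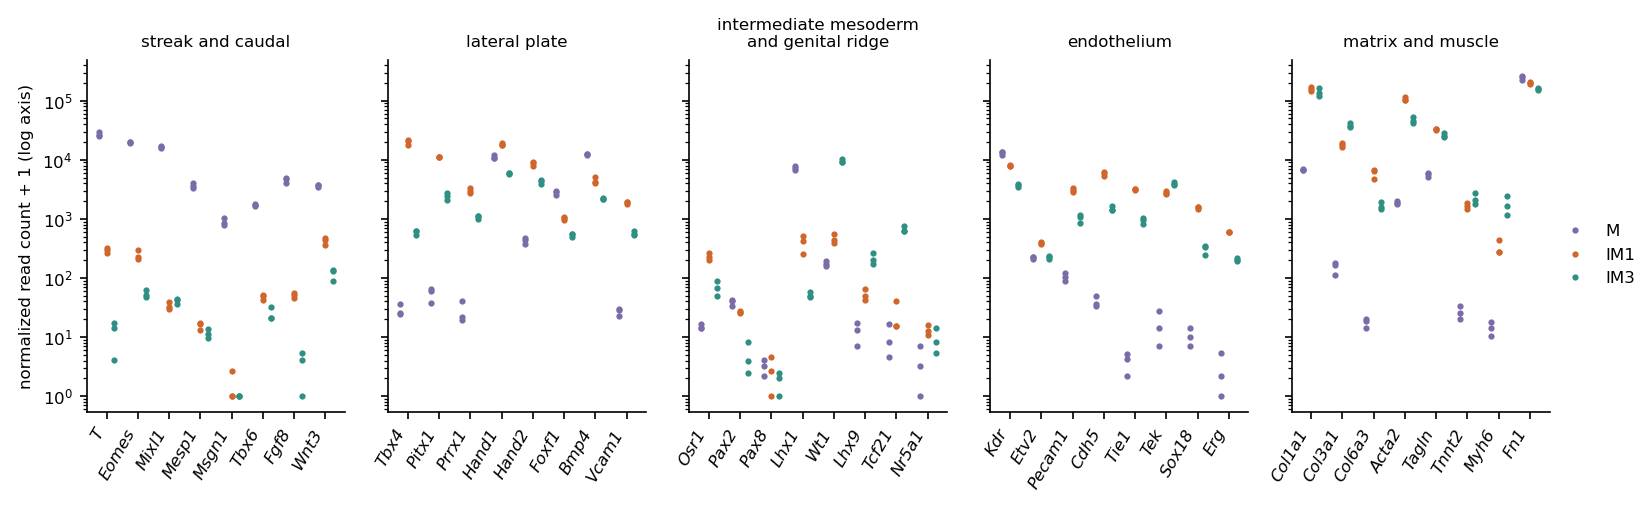
Normalized read counts plus 1 (log axis) per library in M (purple), IM1 (orange) and IM3 (green) for members of 5 gene groups, 1 point per library. Streak genes drop from M to IM1, most lateral plate, endothelial, matrix and muscle genes climb (*Foxf1*, *Bmp4*, *Kdr* and *Fn1* do not), and *Wt1* and *Tcf21* are far higher in IM3 than in IM1.

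The label intermediate mesoderm was held against its markers, and the defining genes did not move as a group. Of 16 intermediate mesoderm and nephric genes tested, 4 rose and 5 fell (median log2 fold change -0.49). *Pax2*, required for the nephric duct, had 32.0, 40.5 and 41.1 counts in M and 24.6, 26.1 and 25.7 in IM1 (log2 fold change -0.57 ± 0.31, adjusted p = 0.101). *Pax8*, which acts with *Pax2*, had at most 3.52 counts in any IM1 library, and its fold change took either sign as libraries were left out. *Lhx1*, which marks the streak as well as the nephric duct, fell from 7870, 6801 and 7320 counts to 258, 507 and 420.1 (-4.21 ± 0.16), an 18.4-fold drop with no overlap. *Osr1*, the earliest marker of intermediate and lateral mesoderm, rose from 13.2, 13.1 and 15.4 to 202, 228 and 259 (4.03 ± 0.23), and *Wt1* from 174, 157 and 193 to 544, 393 and 432 (1.37 ± 0.13). These are low levels: *Osr1* had 3.49 TPM and *Wt1* 6.39 TPM in IM1, and *Wt1* had 149 TPM in IM3. *Eya1* (1.95) and *Gata3* (1.04, and 0.92 with a GC correction) also rose, and *Ret* (-2.45), *Sall1* (-2.34), *Six2* (-1.78) and *Bmp7* (-1.28) fell, the last 3 being genes of the nephron progenitor. In TPM, IM1 had 0.220 of *Pax2*, 0.0200 of *Pax8* and 3.44 of *Lhx1*, so that *Pax2* and *Pax8*, both defining genes of the label, were near 0. The study's quantitative PCR reported strong induction of *Pax2* in IM1 and IM2 relative to the other IM conditions, and induction of *Osr1* in IM1. The read counts above compare IM1 with M, from which *Pax2* showed no rise. *Pax2* counts of the other IM conditions are not given here, so this does not bear on the PCR contrast between conditions. How the PCR and the read counts relate was not tested.

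A minority of genital ridge genes rose, and more of them were below their level with RA. Of 11 tested, 4 rose and none fell from M to IM1 (median 1.37), namely *Nr2f2* (log2 fold change 5.48), *Zfpm2* (3.51), *Lhx2* (2.51) and *Wt1*. Against IM3, 6 of the 11 were lower in IM1 and none higher, with a median of -1.47. *Tcf21*, a factor of the coelomic epithelium and its derivatives, had 39.6, 14.1 and 14.1 counts in IM1 and 614, 766 and 619 in IM3 (log2 difference -4.91 ± 0.23). *Gata4*, which starts the genital ridge, had 12932, 12222 and 12042 counts in M, 7422, 9137 and 7985 in IM1 and 23959, 27200 and 23405 in IM3, so that the IM1 libraries were the lowest of the 3 groups. *Nr5a1*, the gene for steroidogenic factor 1, had at most 14.8 counts in any IM1 library and 8.29 ± 4.38 counts in IM3. The list summed to 197 to 224 TPM in M, 142.5 to 157.6 TPM in IM1 and 593.4 to 637.9 TPM in IM3. *Gata4* made up most of the sum, with 149.9 TPM in M and 75.8 in IM1, and its log2 fold change of -0.60 in counts did not reach the threshold, though with an offset for transcript length it was -1.08 and *Gata4* was called lower. The sum and the median of the list differ in direction.

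*Hox* genes differed by their position in the clusters, where paralog number runs from anterior (1) to posterior (13) expression. Of 39 tested, 20 rose and 2 fell (median 1.94). Among paralogs 1 to 4, 2 of 12 rose and 2 fell (median -0.06), among paralogs 5 to 8, 9 of 11 rose (median 1.94), and among paralogs 9 to 13, 9 of 16 rose (median 3.5). Summed levels were 46.55, 27.97 and 28.25 TPM for these 3 sets in M and 43.86, 121.5 and 210.4 TPM in IM1. *Hoxc10* had 77.2, 73.8 and 67.8 counts in M and 1316, 1406 and 1373 in IM1. Its 3 IM1 libraries lay close together and 18.7-fold above M (log2 fold change 4.23 ± 0.13, adjusted p = 5.03e-20). *Hoxa10* rose by 5.02 ± 0.17, *Hoxc9* by 4.29 ± 0.17 and *Hoxd13*, the most posterior gene of its cluster, by 3.62 ± 0.19. *Hoxa11* had a log2 fold change of 6.62, but 35% of its exon length lies opposite another gene. *Hoxc11* (4.44), *Hoxc13* (4.13) and *Hoxb13* (5.31) did not pass the count minimum. At the anterior end *Hoxb1* fell from 673, 626 and 615 counts to 3.52, 2.12 and 11.6 (-6.80 ± 0.30). Its groups did not overlap.

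Against IM3 the differences also varied with position. Paralogs 1 to 4 had a median IM1 minus IM3 log2 difference of -1.20, with 5 of 12 lower and none higher in IM1. For paralogs 5 to 8 the median was 1.34, and for paralogs 9 to 13 it was 2.65, with 10 of 16 higher and none lower. *Hoxa4* stood out at 17.7 ± 2.38 counts in IM1 and 632 ± 84.1 in IM3 (SD, n = 3), the largest deficit among *Hox* genes. *Hoxb3*, *Hoxd3* and *Hoxd4* share over 50% of their exon length with another gene and their counts are uncertain.

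**Figure D4:**
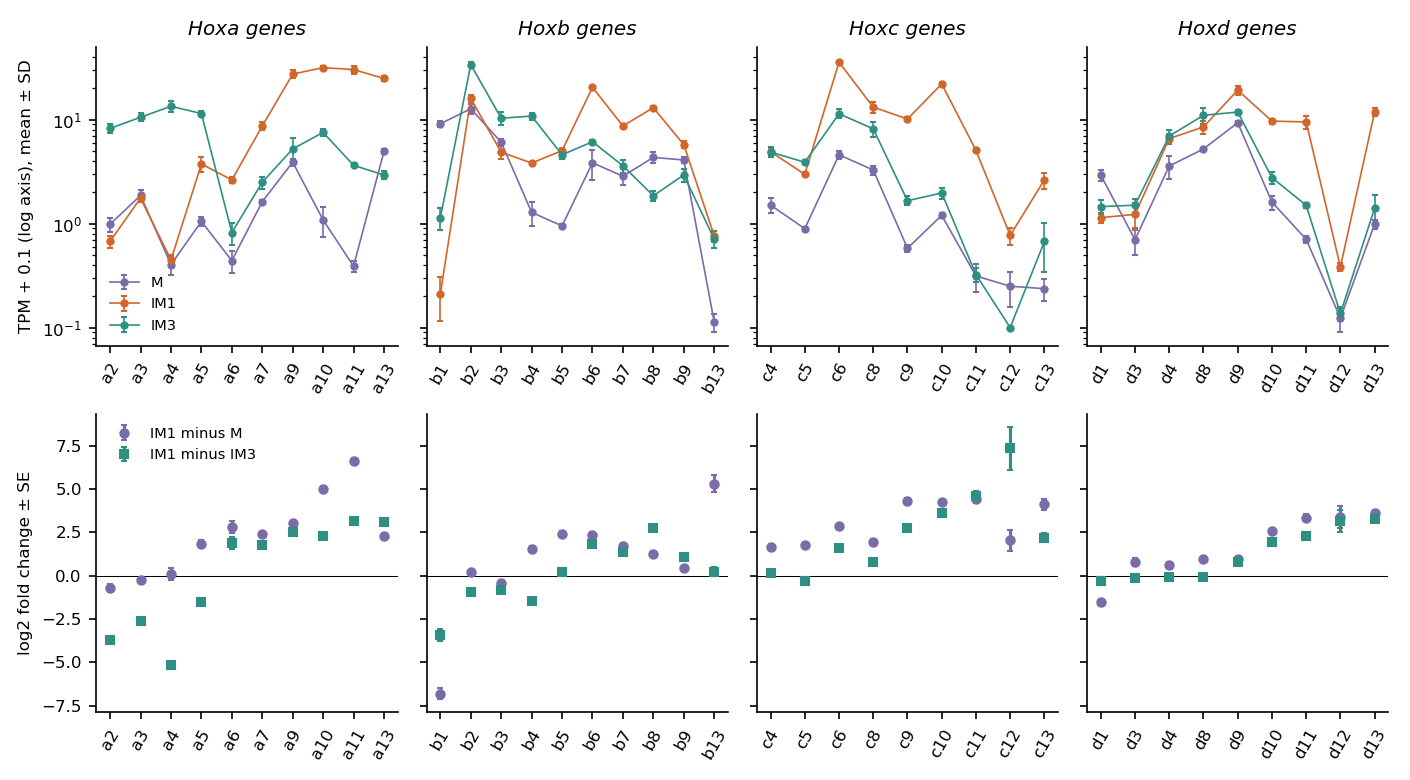
Upper row: mean TPM plus 0.1 (log axis, bars are SD, n = 3) of the *Hox* genes of each cluster, 38 in all, in M, IM1 and IM3; lower row: log2 fold changes of IM1 minus M (circles) and IM1 minus IM3 (squares) with SE. IM3 is the highest of the 3 groups at the anterior end of the *Hoxa* cluster and IM1 the highest from *Hoxa6* on; the medians of both contrasts are lowest for paralogs 1 to 4 and highest for paralogs 9 to 13.

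Signalling genes were described by pathway. Of 14 FGF ligands and receptors, 6 fell and 1 rose: *Fgf8*, *Fgf5* (log2 fold change -5.21), *Fgf10*, *Fgf17*, *Fgf4* and *Fgf3* (-3.39) fell, and the receptor *Fgfr4* rose (2.71). *Fgfr1*, the most abundant receptor at 131 TPM in M and 147 TPM in IM1, had a log2 fold change of 0.13. Of 11 genes that respond to FGF through ERK, 4 fell and 1 rose (median -0.51). *Il17rd*, a feedback inhibitor of FGF receptors, had 32824, 30871 and 35528 counts in M and 6802, 6457 and 6578 in IM1. All M libraries lay above all IM1 libraries (log2 fold change -2.32 ± 0.08, adjusted p = 1.02e-18). The inhibitor *Spred1* (-1.50), the ETS factor *Etv5* (-1.37) and the ERK phosphatase *Dusp6* (-1.004) fell, *Dusp6* only just, since it was under the fold threshold with a GC correction (-0.97) or without M replicate 3 (-0.98) or IM1 replicate 1 (-0.94). *Spry1*, a further feedback inhibitor, rose (1.42), with 24.4% of its exon length antisense to another gene. *Spry2*, *Spry4*, *Dusp4*, *Etv1*, *Etv4* and *Spred2* did not pass; the log2 fold change of *Etv4* was 0.20 and turned to -0.28 with a GC correction. M cells had 20 ng/ml bFGF and IM1 cells 5 ng/ml.

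More Wnt target genes fell than rose, while 4 secreted Wnt antagonists rose. Of 13 targets, 7 fell and 1 rose (median -1.61). *Axin2*, a general feedback target of Wnt signalling, had 9148, 9744 and 9389 counts in M and 2990, 2957 and 2780 in IM1. The groups were apart (log2 fold change -1.70 ± 0.06, adjusted p = 2.9e-19). *Sp8* and *Sp5*, the latter with the promoter printed above, showed the largest falls, followed by *Lgr5* (-2.65) and *Nkd1* (-1.89). *Dkk1*, both a target and a secreted antagonist, rose from 1700, 2098 and 1732 counts to 4419, 5801 and 5606 (1.52 ± 0.08). Of 19 ligands and antagonists, 8 rose and 5 fell. The rises were the antagonists *Dkk2* (6.01), *Sfrp2* (2.86), *Dkk1* and *Sfrp1* (1.45) and the ligands *Wnt2* (3.69), *Wnt4* (2.13), *Wnt9a* (2.06) and *Wnt11* (1.75). The falls were all ligands, *Wnt8a*, *Wnt5b*, *Wnt3*, *Wnt6* (-2.90) and *Wnt2b* (-2.70). *Wnt5a* was the most abundant ligand in IM1 at 56.0 TPM with a log2 fold change of 0.29.

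BMP response genes rose more often than they fell. Of 16, 8 rose and 1 fell (median 1.10). *Smad6*, an intracellular inhibitor induced by BMP, had 4399, 4055 and 3828 counts in M and 11485, 13600 and 13825 in IM1. IM1 libraries were all higher (log2 fold change 1.66 ± 0.11, adjusted p = 7.28e-13). *Smad9* (3.85), *Gata2* (3.41), *Tbx2*, *Id4* (2.22), *Id2* (1.82), the pseudoreceptor *Bambi* (1.16) and *Gata3* rose. The canonical targets *Id1* (0.60 ± 0.11) and *Id3* (0.54 ± 0.11) were higher in every IM1 library without reaching the fold threshold, and *Msx2* fell (-1.16). Ligands and antagonists went the other way: of 13, 5 fell and 2 rose (median -0.98). *Fst*, which binds activin and BMPs, fell by 3.84 on the log2 scale, *Bmper* by 2.85, and *Bmp6* was among the rises (1.43). BMP4 in the medium was 10 ng/ml in M and 20 ng/ml in IM1.

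Retinoid genes gave a mixed picture without added RA. Of 19, 6 rose and 4 fell from M to IM1 (median 0.73), and 2 were higher and 9 lower in IM1 than in IM3. *Rarb*, a direct RA target, had 24.3, 40.5 and 31.9 counts in M, 119.5, 75.5 and 65.5 in IM1 and 4215, 4581 and 4685 in IM3; its IM1 minus M difference of 1.42 ± 0.34 was not called because neither group averaged 100 counts. About 34.1% of its exon length is antisense to another gene. *Aldh1a2*, the enzyme that makes RA in mesoderm, rose from 87.1, 71.4 and 67.8 to 449.9, 663 and 639.7 counts (2.95 ± 0.14) and *Rdh10*, the step before it, by 1.61 ± 0.09. *Nr2f2*, *Dhrs3* (3.46), *Crabp1* (3.05) and *Meis1* (1.07) rose as well, and *Hoxb1* and *Cyp26a1* were among those that fell. Of 10 FoxO target genes, which respond to the loss of phosphatidylinositol 3-kinase signalling, none rose and 2 fell, *Txnip* (-1.26) and *Pik3ip1* (-1.02, and -0.99 without IM1 replicate 1 or M replicate 1), with a median of -0.48. The shares over all tested genes were 9.72% for rises and 5.94% for falls.

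**Figure D5:**
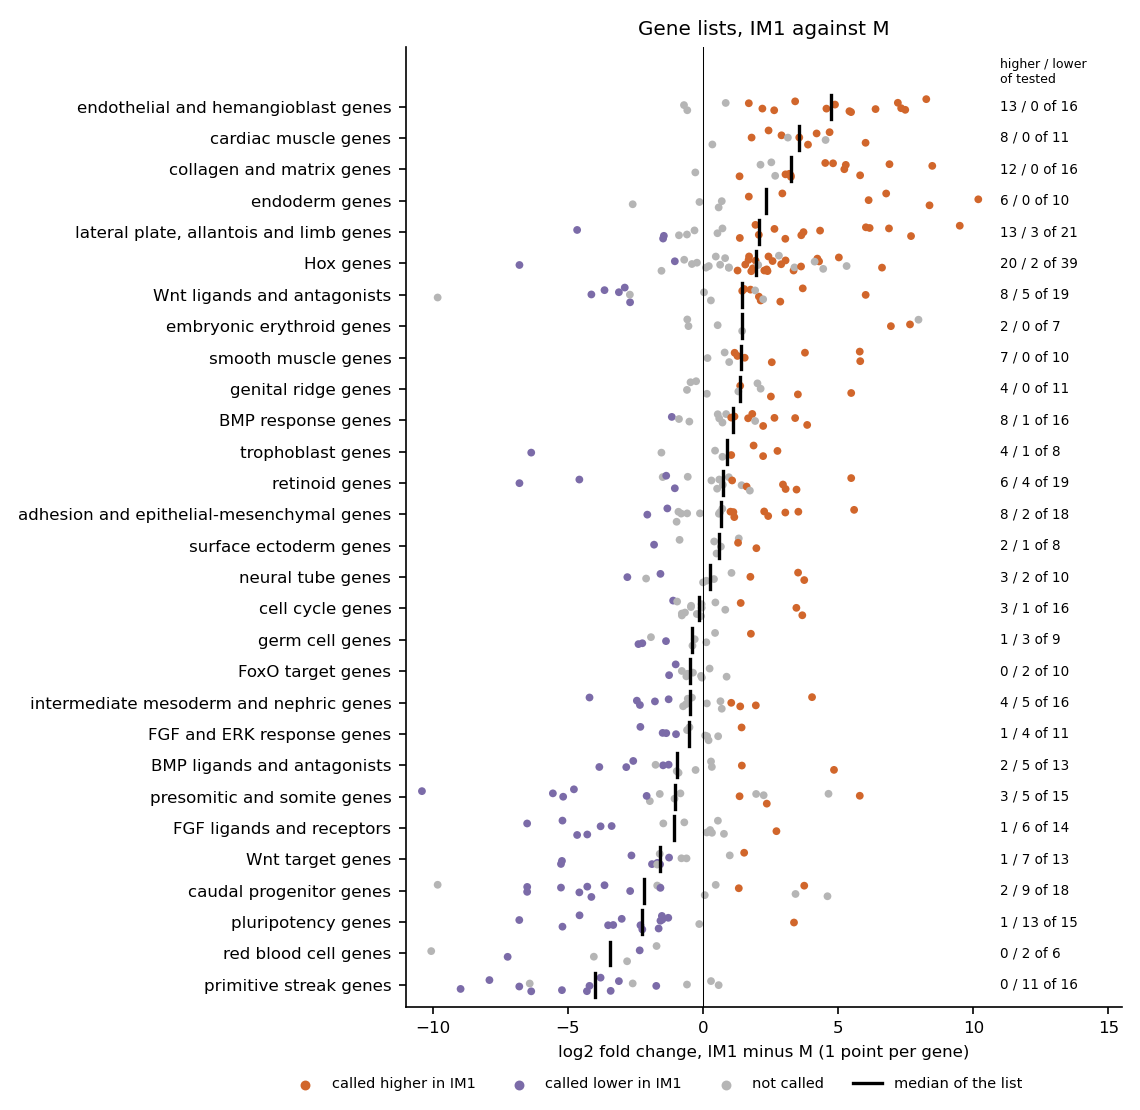
Log2 fold change from M to IM1 of each gene (points) in 29 gene lists, sorted by the list median (black bar), with orange for genes that rose, purple for genes that fell, grey for the rest, and the counts that rose and fell out of those tested at the right. Endothelial, cardiac muscle, matrix and endoderm lists lie to the right of 0 and primitive streak, red blood cell, pluripotency and caudal lists to the left.

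Endothelial genes showed the largest median of the 29 lists. Of 16 endothelial and hemangioblast genes, 13 rose and none fell (median 4.72), and the summed level went from between 74.91 and 87.11 TPM in M to between 293.9 and 320.4 TPM in IM1. *Kdr*, the receptor for vascular endothelial growth factor that marks early mesoderm as well as endothelium, had 13438, 11957 and 13598 counts in M and 7932, 7853 and 8076 in IM1, a log2 fold change of -0.71 ± 0.07 that did not reach the threshold. Genes of formed endothelium started near 0: *Cdh5*, the cadherin of endothelial junctions, had 33.1, 35.7 and 48.3 counts in M and 5362, 6090 and 5993 in IM1, and *Tie1*, a receptor of the angiopoietin system, 3.31, 1.19 and 4.11 and 3063, 3141 and 3222. Both groups were widely apart (log2 fold changes 7.21 ± 0.15 and 10.00 ± 0.20, adjusted p = 1.24e-23 and 3.67e-24). *Erg* (8.26), *Tek* (7.48), *Sox18* (7.33), *Fli1* (6.38), *Cd34* (5.47), *Sox7* (5.41), *Pecam1* (4.88) and *Tal1* (4.56) rose with them. *Etv2*, the factor that starts the lineage, had a log2 fold change of 0.84, and *Gata1* of the red cell lineage had at most 24.3 counts in any M or IM1 library. Compared with IM3, 10 of the 16 were higher in IM1 and none lower.

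Adult and embryonic globin genes moved in opposite directions. Of 6 red blood cell genes 2 fell, *Hbb-bs* and *Hba-a1*, and none rose (median -3.43), and of 7 embryonic erythroid genes 2 rose, *Hbb-bh1* and *Hba-x*, and none fell (median 1.44). The 4 adult globin genes with *Slc4a1* and *Alas2*, markers of red blood cells, summed to 42.42, 63.29 and 79.97 TPM in the M libraries and to 3.06, 3.96 and 4.54 TPM in the IM1 libraries. *Hbb-bs* fell from 323, 500 and 558 counts to 5.27, 1.41 and 2.49, and *Hbb-bt*, its near-identical copy, went from 105, 135 and 161 counts to 0 in all 3 IM1 libraries, at least 55.3-fold lower by a floor of 3 counts per library. The same sum was 21.31 to 74.36 TPM in IM3, and in ESC libraries it was 11.68 to 91.03 TPM. In EpiSC, the stage before M, it was 1.57 to 2.31 TPM. It was 30.76 to 72.1 TPM in IM4, 1.62 to 1.86 TPM in IM2 and 1.88 to 3.04 TPM in IM5. Which cells carried these transcripts, and their part in the other results, was not tested. The embryonic globins *Hbb-bh1*, *Hba-x* and *Hbb-y* by contrast summed to at most 0.4 TPM in M and 20.58 to 29.68 TPM in IM1. *Hbb-bh1* had 5.51, 0 and 0 counts in M and 193, 254 and 279 in IM1 (log2 fold change 6.95 ± 0.47), and *Hbb-y* was at 0 in M and at 24.6, 35.3 and 33.1 counts in IM1, at least 9.34-fold higher. The 3 embryonic globins were lower in IM1 than in IM3.

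Matrix and contractile genes rose to high levels. Of 16 collagen and matrix genes, 12 rose and none fell (median 3.24). *Col1a1*, the main chain of type I collagen, had 6979, 6820 and 6619 counts in M and 168008, 155568 and 144569 in IM1. IM1 was higher in every library (log2 fold change 4.52 ± 0.13, adjusted p = 5.02e-21) and reached 751 TPM. *Col6a3* (8.48), *Col3a1* (6.90) and *Postn* (5.81) had larger fold changes from lower levels, and fibronectin, *Fn1*, was abundant in both stages with a log2 fold change of -0.29. *Postn* and *Col3a1* were lower in IM1 than in IM3 (log2 difference -3.18 and -1.11), and *Igfbp7*, a secreted binding protein that is high in vessels, was higher (4.35). Of 10 smooth muscle genes, 7 rose and none fell (median 1.40). *Acta2*, smooth muscle actin, went from 2002, 1869 and 1801 counts to 113304, 104405 and 101173 (5.81 ± 0.10), without overlap, and was among the 10 most abundant changed genes of IM1 at 1847 TPM. *Actg2* (5.80), *Des* (3.77) and *Tagln* (2.54) rose too, whereas *Myh11*, a marker of mature smooth muscle, had 49.0 ± 9.08 counts and a log2 fold change of 0.16.

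Cardiac genes rose at lower levels. Of 11, 8 rose and none fell (median 3.56). *Tnnt2*, cardiac troponin T, had 32.0, 25 and 19.5 counts in M and 1444, 1842 and 1644 in IM1. Its groups did not overlap (log2 fold change 6.01 ± 0.19), nor did those of *Myh6* (4.68 ± 0.45), *Myh7* (4.20 ± 0.24) and *Mef2c* (3.88 ± 0.10). *Nkx2-5*, which specifies heart cells, had 1.10, 5.95 and 10.3 counts in M and 107, 165 and 142 in IM1 but did not pass the count minimum over all libraries. *Myh6*, *Myl7*, *Myl4*, *Actc1* and *Ttn* were lower in IM1 than in IM3, the largest difference being -2.41 for *Myh6*.

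Endoderm genes rose in these cells, which are labelled mesoderm. Of 10, 6 rose and none fell (median 2.31), and the summed level was 16.75 to 19.73 TPM in M and 417.3 to 462.5 TPM in IM1. The rises were led by secreted proteins made by visceral endoderm, yolk sac and fetal liver: *Afp* had 2.21, 2.38 and 3.08 counts in M and 3074, 3163 and 3163 in IM1, and *Ttr* 43, 58.3 and 27.7 and 4318, 4969 and 4654. No IM1 library came near an M library (log2 fold changes 10.18 ± 0.33 and 6.77 ± 0.15, adjusted p = 6.75e-20 and 5.69e-23 from edgeR). *Apoa1* (8.38), *Apob* (6.12), *Hnf4a* (2.93) and *Sox17* (1.69), the last shared with endothelium, rose as well. *Foxa2* had a log2 fold change of 0.57, *Foxa1* of -0.14 and *Cer1* of -2.61, none of which passed. Against IM3, *Sox17* (2.54) and *Foxa2* (1.15) were higher in IM1 and none was lower, and *Afp* differed by -0.27 ± 0.13 and *Apob* by -0.05 ± 0.13.

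Genes of the remaining lineages moved in both directions. Of 10 neural tube genes, 3 rose (*Sox3*, *Irx3* 3.51 and *Tubb3* 1.75) and 2 fell (*Olig2* -2.81 and *Sox2*), while the defining genes *Sox1* and *Pax6* had at most 7.06 and 14.9 counts in any IM1 library and *Pax6* changed sign between settings. Of 8 surface ectoderm genes, 2 rose (*Dlx3* 1.97 and *Perp* 1.29) and 1, *Grhl2*, fell (-1.82), and *Krt5* ranged from 1.10 to 176 counts within M. Of 8 trophoblast genes, 4 rose (*Ascl2* 2.75, *Plac1* 2.22, *Krt7* 1.87 and *Gata3*) and *Eomes* fell, with the defining gene *Elf5* at most at 2.82 counts in IM1. The trophoblast list summed to 349.3 to 396 TPM in M, 481.2 to 489.1 TPM in IM1 and 175.7 to 183.4 TPM in IM3. Of 9 germ cell genes, *Kit* rose (1.77), a gene also expressed in blood and vessel precursors, and *Ddx4* (-2.39), *Dppa3* (-2.25) and *Dnd1* (-1.38) fell. Of all tested genes 9.72% rose and 5.94% fell, and the share of germ cell genes that rose is near the former. Against IM3, 5 trophoblast, 4 germ cell and 2 neural tube genes were higher in IM1 and none lower. In the surface ectoderm list 1 gene was lower in IM1 than in IM3 and none higher. Of all tested genes 3.72% were called higher in IM1 than in IM3 and 2.62% lower.

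Pluripotency genes fell nearly throughout. Of 15, 13 fell, 1 rose and 1 did not pass (median -2.25). *Pou5f1*, the gene for Oct4, had 7840, 8691 and 7744 counts in M and 1574, 1582 and 1704 in IM1, and *Nanog* 2184, 1986 and 1685 and 189, 192 and 201. The groups did not overlap (log2 fold changes -2.32 ± 0.13 and -3.33 ± 0.10). *Pou5f1* was still at 38.4 TPM in IM1 and higher there than in IM3 by 2.35 ± 0.16. *Dnmt3b*, a de novo DNA methyltransferase of the epiblast, fell by 3.52 on the log2 scale, *Otx2* fell (-4.57), and *Klf4*, which is also expressed in endothelium, rose (3.36). Of 18 adhesion and epithelial-mesenchymal genes, 8 rose and 2 fell (median 0.67). *Vim* rose by 2.26 ± 0.06, *Twist2* by 5.59 ± 0.14 and *Snai2* by 3.52 ± 0.10, while the epithelial genes *Esrp1* (-2.07) and *Epcam* (-1.33) fell. Neither *Cdh1* (-0.59) nor *Cdh2* (-0.92) passed, and the keratin *Krt19* rose (1.12). *Twist2* has 46.5% of its exon length antisense to another gene.

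Among 16 cell cycle genes, 3 inhibitors of cyclin-dependent kinases rose and *Mki67* fell (median -0.16). Over all tested genes, 9.72% rose and 5.94% fell. *Cdkn1c*, the gene for p57, had 2616, 3044 and 2801 counts in M and 30032, 39234 and 38320 in IM1, and *Cdkn1a*, for p21, 1254, 1180 and 1189 and 13347, 12983 and 13270. The groups were 12.7-fold and 10.9-fold apart with no overlap (log2 fold changes 3.67 ± 0.12 and 3.45 ± 0.07). *Cdkn1c* has 30.7% of its exon length antisense to another gene. *Cdkn2b* rose by 1.39 ± 0.13. Cell cycle genes outside this list were called in both directions. The inhibitors *Cdkn2c* (log2 fold change 3.16) and *Cdkn2d* (1.06) rose, and *Cenpf* (-1.90), *Ccnb2* (-1.56) and *Bub1* (-1.35) fell. *Mki67*, a marker of cycling cells, went from 33787, 26702 and 33645 to 14583, 14354 and 14653 counts (-1.11 ± 0.08), whereas *Cdk1* had a log2 fold change of -0.06 and *Top2a* of -0.96. *Cdkn1c* was higher in IM1 than in IM3 by 2.25 ± 0.11, and *Mki67* differed from IM3 by -0.74 ± 0.08.

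Among the genes ranked by size of change, the 10 largest rises from M were *Spp2*, *Afp*, *Slc14a1*, *Tie1*, *Tbx4*, *Cbln4*, *Lrrc17*, *Icam2*, *Cygb* and *Art4*. The ranking covers called genes without overlap between groups. Left out were clone-named genes, *AY036118* (log2 fold change -16.3) among them, and genes with at least 50% of their exons inside another gene. *Spp2*, a secreted phosphoprotein, was at 0 in M and at 165, 204 and 126 counts in IM1, at least 49.7-fold higher. *Slc14a1*, a urea transporter of red cells and kidney, had 3 expected counts over the M libraries together and 1017, 1593 and 1564 normalized counts in IM1, a ratio of 1278 (95% counting interval 437 to 6196). *Icam2* is an endothelial adhesion molecule, *Cygb* a globin of fibroblasts and pericytes, and *Cbln4* and *Lrrc17* encode secreted proteins. *Cbln4* and *Slc14a1* were higher in IM1 than in IM3 (log2 4.76 ± 0.25 and 2.25 ± 0.17), and *Art4* differed by -0.03 ± 0.14. In the same ranking the 10 largest falls were *Msgn1*, *Mixl1*, *Mesp1*, *Hbb-bs*, *Tdgf1*, *Hoxb1*, *Fgf8*, *T*, *Eomes* and *Vrtn*. *Vrtn*, a gene linked to the number of vertebrae, went from 17740, 19280 and 17394 counts to 229, 214 and 238 (-6.32 ± 0.13).

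By level, the most abundant genes that changed were led in IM1 by the imprinted RNA *H19* at 6411 TPM, ferritin light chain *Ftl1* at 4752, the actin-binding thymosins *Tmsb10* at 3076 and *Tmsb4x* at 2400, *Vim* at 2666, *Igf2* at 2146, *Acta2* and *Mest* at 1417 TPM, all of which rose. *Ftl1* and *Mest* overlap an antisense gene over 26.5% and 23.1% of their exons, respectively. *Tmsb10* was under the fold threshold with a GC correction (log2 fold change 0.85) or without M replicate 3 (0.93). The mitochondrial gene *mt-Co3* and *Gm29216* were in the same group of 10 but fell. In M the 10 most abundant changed genes were *Gm29216*, *mt-Co3*, *mt-Co2*, *mt-Atp6*, *Pkm*, *Ftl1*, *Ldha*, *mt-Nd6*, *Tmsb10* and *Rpl36a-ps2*, of which 8 fell and *Ftl1* and *Tmsb10* rose. The falls of *mt-Co3*, *mt-Atp6*, *mt-Nd6* and *Gm29216* did not reach the fold threshold with a GC correction, where they were -0.79, -0.50, -0.37 and -0.65. *Pkm* and *Ldha*, enzymes at the end of glycolysis, had 1906 and 1761 TPM in M and 803 and 460.1 TPM in IM1 (log2 fold changes -1.35 ± 0.06 and -2.03 ± 0.07). *Gm29216* and *Rpl36a-ps2* have near-identical copies elsewhere and their counts are uncertain.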

How the data were processed

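Total RNA was extracted and made into libraries with an Illumina TrueSeq library kit. The libraries were sequenced as 75-base paired-end reads on an Illumina HiSeq instrument. The authors trimmed adapters with cutadapt 1.9.1, aligned reads to GRCm38 with STAR 2.5.2a under Ensembl annotation and estimated expression per gene with RSEM 1.3.0. Each deposited file gives per gene an expected count, a TPM value, an FPKM value and transcript lengths by the authors. The expected counts were tested, the TPM values served for levels, the effective lengths entered 1 alternative, and the FPKM values were not used. The strand setting is not given in the sources used here. The study's own test was that of DESeq2.

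Expected counts were rounded, filtered by edgeR's expression filter (20839 genes kept) and scaled by TMM. The quasi-likelihood test of edgeR 4.0.16 (R 4.3.3, limma 3.58.1) was fitted to all 27 libraries with a coefficient per group, and p-values were adjusted by Benjamini-Hochberg over all genes tested. SE of a log2 fold change was derived from the F statistic. Library totals were 51413455 to 84876603 expected counts in M and IM1, and intervals of ratios (95%) and floors (3 counts per library) cover counting error only. On simulated data for IM1 against M (19781 genes), 97% of 4-fold changes were recovered and no unchanged gene was called. The simulated counts were drawn at the spread estimated by the fit, with no GC trend and no deviant library. False calls from those sources were therefore not tested.

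The genes described and the 29 lists were chosen with earlier results of these data known. Named genes are *Cdx2*, *Tbx4* and *Nkx1-2*, the 10 largest rises and falls among called genes without overlap between groups (clone-named genes and genes with at least 50% of their exons inside another gene left out), the 10 most abundant called genes per stage, and of each list its defining members and up to 4 largest called changes per direction. Further list members were named after their values were seen, and a few named by the rule are counted in their lists but not reported here by name. Exon overlaps were computed with GENCODE M21, which matched 48435 of 48795 gene identifiers, and promoters came from RefSeq on GRCm38.p6. Alternatives were DESeq2 1.42.0 as test and as scaling, a length offset, a GC offset, a replicate block, other thresholds, the 6 libraries alone, and each library left out.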

Additional observations from a re-analysis of the deposited data

How the results depend on the processing

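Counts of genes called moved by over 1.5 times only when a threshold was dropped: without the count minimum 3664 genes were higher and 2154 lower in IM1 than in M (1420 and 1077 against IM3), and without the fold minimum 4857 and 5083 (3607 and 3591 against IM3). Leaving out each library in turn gave 1976 to 2053 genes higher and 1219 to 1259 lower than in M, and 725 to 815 higher and 530 to 578 lower than in IM3. Same-numbered M and IM1 libraries correlated at 0.0286, 0.0555 and 0.074 in their deviations from the group means, so the numbers were not taken as pairs, although each library correlated best with its own number. With a replicate block 2026 genes were higher and 1237 lower than in M, and 777 and 544 against IM3, and no call count moved by over 1.5 times. The median of each of the 29 lists kept its sign under the scaling alternatives checked, and among the groups put together later only that of the mitochondrially encoded genes turned, to 0.04 with a GC offset. Of 3380 values of 199 named genes, 3289 kept their direction and call, 55 lost a call, 26 gained one and 10 changed sign. The changes of sign were all in genes without a call: *Cdx2* with a GC offset (-0.133, or -0.135 with the replicate block) and without IM1 replicate 3 (-0.006, up to 0.125 without M replicate 2), *Etv4* with a GC offset (-0.281, with or without the block), *Pax8* without IM1 replicate 2 (0.211, down to -1.376 without IM1 replicate 1), and *Pax6* with a length offset (-0.871), without IM1 replicate 1 (-0.257), without M replicate 1 (-0.140) and without M replicate 2 (-0.016, up to 0.643 without M replicate 3). Their cause was not tested. The 55 lost calls were mostly of genes near a threshold: *Msgn1* lost its call without any 1 M library (-10.5 to -10.3 on the log2 scale), *Cbln4* without any 1 IM1 library (9.25 to 9.46), *Hoxb1* without M replicate 1 (-6.76) and *Olig2* without M replicate 3 (-2.68), all 4 by the count minimum. Without IM1 replicate 3, *Gm29216* (-0.97), *mt-Atp6* (-0.92) and *mt-Nd6* (-0.95) were under the fold threshold, as was *Gm29216* without M replicate 1 (-0.97) or 2 (-0.93).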

Other observations

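Groups of genes outside the comparisons above were put together after their values had been seen, and they are given as descriptions. Of 20 imprinted genes, 14 rose from M to IM1 and none fell, with a median log2 fold change of 1.83. *Dlk1*, a secreted regulator of growth, had 885, 861 and 742 counts in M and 52696, 53954 and 49457 in IM1 (log2 fold change 5.97 ± 0.12), *Plagl1* rose by 5.58 ± 0.12, *Igf2* by 3.41 ± 0.05, *H19* by 2.75 ± 0.07 and *Igf2r*, the receptor that clears Igf2, by 2.29 ± 0.05. *Peg3* (-0.39), *Peg10* (0.26) and *Phlda2* (0.07) did not pass. Against IM3, 4 of the 20 were higher in IM1 and 1 was lower: *Igf2* differed between IM1 and IM3 by 0.25 ± 0.05 and *H19* by 0.57 ± 0.07, while *Phlda2* was higher in IM1, with 14185 ± 1240 counts against 1257 ± 184 (SD, n = 3), and *Plagl1* lower (-1.49 ± 0.09).

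Of 15 glycolysis genes, 7 fell and 1 rose (median -0.99). *Ldha* had 88193, 106679 and 87182 counts in M and 22535, 23381 and 23396 in IM1, and *Pfkl* (-2.58), *Eno1* (-1.50), *Slc2a3* (-1.40), *Tpi1* (-1.36), *Pkm* (-1.35) and *Pgk1* (-1.02) fell with it, whereas hexokinase *Hk1* rose (1.43). Of the 13 mitochondrially encoded messengers tested, 4 fell and none rose (median -0.46), and 3 of the 4, *mt-Co3*, *mt-Atp6* and *mt-Nd6*, did not reach the fold threshold with a GC correction, with which the median of the 13 turned to 0.04. Of 16 genes of antigen presentation and interferon response, 7 fell and none rose (median -1.16), led by *Psmb8* (-5.34), *Gbp2* (-5.29) and *Irf1* (-4.11). *Gbp2* had 6353, 6237 and 6207 counts in M and 185, 147 and 150 in IM1, and the light chain *B2m* had a log2 fold change of 0.89 in the other direction.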
